A study of Mus musculus with 16 samples.

Results

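Chromatin accessibility is described here for 7 genes that encode histone acetyltransferases other than KAT6A and KAT6B: Kat2a, Kat2b, Kat5, Kat7, Kat8, Ep300 and Crebbp. They were chosen by name, as the rows of the promoter and gene-end count tables whose gene ID maps to these symbols, and they are 7 of the 20113 genes in each table. In the tables they carry the Entrez gene IDs 14534 (Kat2a), 18519 (Kat2b), 81601 (Kat5), 217127 (Kat7), 67773 (Kat8), 328572 (Ep300) and 12914 (Crebbp). All 7 promoter windows and 6 of the 7 gene-end windows passed the filter on low counts; the Crebbp gene end did not.

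Neural stem and progenitor cells came from the dorsal telencephalon, the part of the forebrain that becomes the cortex, of E12.5 mouse embryos. They were grown as neurospheres before ATAC-seq, which reads out open DNA by where a transposase can insert sequencing adapters. There were 4 groups of 4 embryos: Kat6b-/- knockout (KO) on C57BL/6, Tg(Kat6b) transgenic (Tg) on the hybrid background FVB x BALB/c, wild type on FVB x BALB/c, and wild type on C57BL/6. The Tg line overexpresses Kat6b and, per the series' design text, does not survive on C57BL/6, so each mutant is set against wild type of its own background. Each library was made from 50000 of these cells and 50000 Drosophila S2 cells added as a spike-in. The promoter that drives the transgene, the deleted part of Kat6b and the sex of the embryos are not stated in the sources used here.

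Histone acetyltransferases move an acetyl group from acetyl-CoA to lysines of histone tails, which weakens the contact of histones with DNA and creates binding sites for bromodomain proteins. KAT2A and KAT2B belong to the GNAT family and work in the SAGA and ATAC complexes; KAT5, KAT7 and KAT8 belong to the MYST family, as KAT6A and KAT6B do. p300 (Ep300) and CBP (Crebbp) form a family of their own and are brought to enhancers and promoters by many transcription factors; mutations of either gene in humans cause Rubinstein-Taybi syndrome, which affects brain development. The values below are accessibility of the DNA at these genes, not their expression and not histone acetylation.

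The promoter sequences that follow belong to Ep300, Crebbp and Kat7, whose windows carry the main differences between groups, and to Kat2b, whose window has a like signal but did not pass the test in any comparison under TMM scaling. Each is 300 bases around a RefSeq start site on the GRCm38.p6 build, 5′ to 3′ on the gene's strand. Capitals mark exact matches, on either strand, to the motifs searched. These were the short CRE core TGACG and the full CRE TGACGTCA that contains it, which CREB-family factors bind, the SP/KLF box GGGCGG, the NRF1 core GCGCATG, the ETS core CCGGAAG, the CCAAT box CCAAT, the YY1 core AAGATGGC and the TATA box TATAAA.
Ep300 (chr15:81585964-81586263, plus strand): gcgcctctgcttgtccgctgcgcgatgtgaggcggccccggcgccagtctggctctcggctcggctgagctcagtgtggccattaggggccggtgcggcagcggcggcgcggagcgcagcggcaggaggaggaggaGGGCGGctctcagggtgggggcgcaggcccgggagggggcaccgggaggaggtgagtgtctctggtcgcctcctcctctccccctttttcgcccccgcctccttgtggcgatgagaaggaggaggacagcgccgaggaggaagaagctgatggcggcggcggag
Crebbp (chr16:4213355-4213654, minus strand): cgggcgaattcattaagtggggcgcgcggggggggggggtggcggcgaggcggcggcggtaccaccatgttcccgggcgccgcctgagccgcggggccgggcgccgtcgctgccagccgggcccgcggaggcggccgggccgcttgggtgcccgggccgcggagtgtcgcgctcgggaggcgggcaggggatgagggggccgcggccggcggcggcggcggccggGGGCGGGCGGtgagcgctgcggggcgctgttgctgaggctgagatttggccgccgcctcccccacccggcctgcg
Kat7 (chr11:95310197-95310496, minus strand): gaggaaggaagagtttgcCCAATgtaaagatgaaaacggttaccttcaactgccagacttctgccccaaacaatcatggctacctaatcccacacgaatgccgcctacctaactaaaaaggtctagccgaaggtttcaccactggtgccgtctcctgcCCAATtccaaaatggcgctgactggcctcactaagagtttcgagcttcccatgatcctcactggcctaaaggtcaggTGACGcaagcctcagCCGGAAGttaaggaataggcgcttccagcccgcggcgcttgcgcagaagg
Kat2b (chr17:53566721-53567020, plus strand): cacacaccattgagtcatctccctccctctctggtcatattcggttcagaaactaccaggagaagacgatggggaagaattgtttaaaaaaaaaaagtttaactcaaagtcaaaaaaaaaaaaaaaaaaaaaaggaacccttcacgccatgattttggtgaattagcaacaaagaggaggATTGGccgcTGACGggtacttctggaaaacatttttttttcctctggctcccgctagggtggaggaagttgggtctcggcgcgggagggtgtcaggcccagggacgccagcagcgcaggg

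The Ep300 sequence was 72.3% G or C with 30 CpG dinucleotides, and that of Crebbp was 82% G or C with 49 CpG. Kat7 had 53% and 14 CpG, and Kat2b 47% and 11 CpG, against medians of 52.7% and 7 CpG over 32851 promoters in the RefSeq table. Ep300 held 1 SP/KLF box, and Crebbp held 2 that overlap, the run of 10 capitals in its sequence. Kat7 held 1 short CRE core, 1 ETS core and 2 CCAAT boxes, and Kat2b held 1 short CRE core and 1 CCAAT box. Over all 7 genes, which have 10 start sites in the table, the short CRE core was found at 6 starts of 5 genes and is held by 20.8% of all promoters. The SP/KLF box was at 5 starts of 4 genes (35.7% of all promoters), the CCAAT box at 5 starts of 4 genes (37.4%) and the ETS core at 3 starts of 3 genes (8.86%). The full CRE (1.79% of all promoters), the NRF1 core (3.91%), the YY1 core (2.75%) and the TATA box (13.6%) had no exact match in these windows. The count tables do not say which start site their windows follow, and a match is a description of the letters only.

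Promoter counts per library summed to 2615700 to 3642738 in KO, 4023140 to 5015408 in Tg, 1384643 to 3101439 in wild type FVB x BALB/c and 2147037 to 2757778 in wild type C57BL/6, so the Tg libraries were the deepest. Values are CPM, each window's count per library total after TMM scaling. The Kat6b promoter window was 13.8-fold higher in Tg than in wild type of its background (log2 change 3.79, edgeR adjusted p = 5.87e-128). The Kat6b gene end was 8.44-fold higher in Tg (log2 change 3.08, edgeR adjusted p = 1.34e-54). Counts were not corrected for transgene copies, and the part of such copies in these values was not tested. The Kat6b promoter window was not lower in KO (log2 change 0.13, edgeR adjusted p = 0.167). Whether that window lies in the deleted part is not known, so it does not check the KO label. Promoters of 10 neural stem and progenitor markers summed to 1071 to 1122 CPM in KO, 1170 to 1242 CPM in Tg, 807 to 876 CPM in wild type FVB x BALB/c and 1008 to 1062 CPM in wild type C57BL/6, and none was at 0. Promoters of 6 neuron markers summed to 183 to 192 CPM in KO against 224 to 245 CPM in wild type C57BL/6, and to 166 to 174 CPM in Tg against 181 to 199 CPM in wild type FVB x BALB/c. In Tg the sums were also below those of wild type FVB x BALB/c without overlap for 6 mesenchymal and meningeal markers (159 to 173 against 184 to 213 CPM), 5 erythroid markers (61.7 to 66.2 against 71.4 to 84.2 CPM) and 6 microglia and leukocyte markers (36.1 to 44.0 against 45.6 to 60.5 CPM), and in KO below wild type C57BL/6 for 5 ventral telencephalon markers (125 to 132 against 140.0 to 152 CPM). The sums of 5 endothelial markers overlapped in both comparisons, as did those of the ventral list in Tg and of the mesenchymal, erythroid and microglia lists in KO. The share of all promoters that separate in this way was not computed. By the edgeR test 26.9% of all promoters were higher and 30.5% lower in Tg. With promoters cut by mean CPM into 4 bins, 50.9% of the bin with the least signal were lower in Tg. The median log2 change of that bin was -0.59 in Tg and -0.21 in KO. The marker sums are therefore not by themselves a result about cell types. Promoter windows on chromosome Y summed to 123 to 130.0 CPM in Tg against 325 to 412 CPM in wild type FVB x BALB/c, and to 199.6 to 253 CPM in KO against 276 to 369 CPM in wild type C57BL/6. The part of marker levels and chromosome Y signal in the results on the 7 genes, and on the partner promoters described below, was not tested.

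The 7 promoter windows, each 2001 bases long so that their CPM can be compared directly, spanned a wide range of accessibility. Kat7, whose product HBO1 acetylates histone H3 and H4 and takes part in DNA replication licensing, had the highest window in every group, with 173 ± 5.83 CPM in KO, 194 ± 6.64 in Tg, 142 ± 6.92 in wild type FVB x BALB/c and 169 ± 11 in wild type C57BL/6 (SD, n = 4 each). In wild type C57BL/6 that mean was above 97.0% of tested promoters. Ep300 came next, with 113 ± 3.66 CPM in KO, 144 ± 15.3 in Tg, 90.3 ± 8.06 in wild type FVB x BALB/c and 115 ± 8.85 in wild type C57BL/6. Crebbp followed, with 103 ± 4.83 CPM in KO, 118 ± 4.91 in Tg, 88.0 ± 4.57 in wild type FVB x BALB/c and 83.3 ± 4.37 in wild type C57BL/6. Kat2b (PCAF) came after it at 74.0 to 83.7 CPM as group means and Kat5 (TIP60, the catalytic subunit of a large complex in DNA repair and transcription) at 51.3 to 59.0 CPM.

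Kat2a (GCN5) and Kat8 (MOF, which acetylates histone H4 in the MSL and NSL complexes) were lowest, with group means of 25.1 to 27.8 CPM and 25.0 to 29.2 CPM. Their libraries overlapped in every group. Within libraries Kat8 was the higher in 4 of 4 in Tg and in 2 of 4 in each wild type group, and Kat2a in 3 of 4 in KO; these within-library differences were not tested. Crebbp and Kat2b overlapped in wild type FVB x BALB/c and in wild type C57BL/6, with Crebbp the higher in 3 of 4 libraries of each, and did not overlap in KO or Tg. Ep300 and Crebbp overlapped in wild type FVB x BALB/c, where Ep300 was the higher in 2 of 4 libraries. All other neighbours in the order were separated in all libraries of every group.

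**Figure D1:**
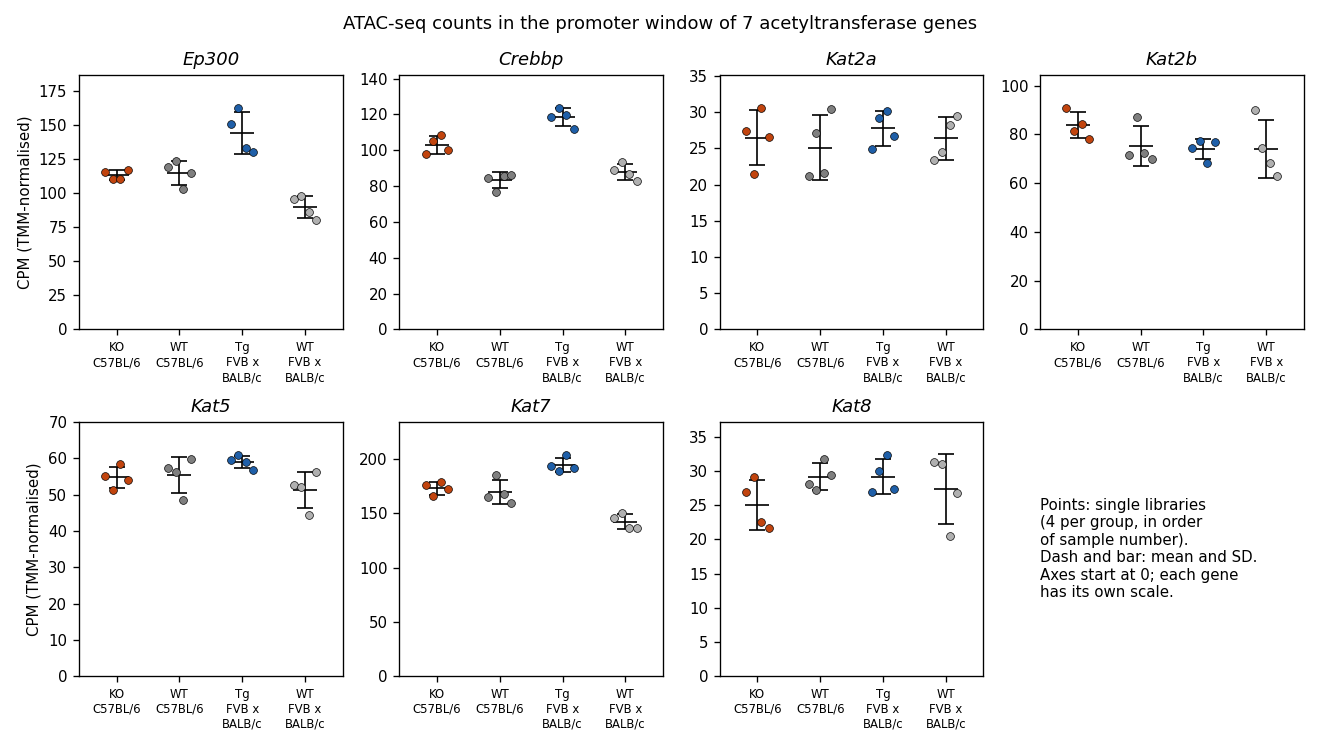
TMM-normalised promoter CPM of the 7 genes in every library, by group, with the mean and SD over 4 libraries; each gene has its own axis from 0. The 4 Tg libraries lie above all 4 wild type FVB x BALB/c libraries for Ep300, Crebbp, Kat5 and Kat7, and the 4 KO libraries lie above all 4 wild type C57BL/6 libraries for Crebbp. The share of all promoters with libraries separated in this way was not computed. By the edgeR test 57.3% of all promoters passed in Tg and 3.99% in KO.

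The first comparison, KO against wild type C57BL/6, asks what loss of Kat6b does to accessibility at its relatives. Crebbp was the only one of the 7 promoters to pass the test, and it was 1.23-fold higher in KO. Across all promoters 3.99% passed the test in this comparison, 418 higher and 380 lower of 20008. Crebbp had 98.0, 105, 109 and 100 CPM in the KO libraries, against 84.7, 76.8, 85.7 and 86.1 CPM in the wild type libraries. Every KO library was above every wild type library. In such cultures a larger share of cells with an open promoter and a more open promoter per cell cannot be told apart. The log2 change was 0.30 (SE 0.07, edgeR adjusted p = 0.00376), larger than that of 97.0% of promoters. The direction held under every scaling tried, with log2 changes of 0.25 to 0.39. After all libraries were thinned to the depth of the shallowest, the log2 change was 0.25 and no longer passed (edgeR adjusted p = 0.563); 67 promoters in all passed at that depth.

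Ep300, the close relative of Crebbp, had 116, 110, 110 and 117 CPM in KO and 119, 124, 103 and 115 CPM in wild type, so the groups overlapped. Its log2 change was -0.02, with a 95% interval of -0.16 to 0.11. Kat7 and Kat5 also lay close to 0, with log2 changes of 0.03 (95% interval -0.08 to 0.15) and -0.03 (-0.21 to 0.14). Kat2a had a log2 change of 0.06 with a wider interval, -0.19 to 0.31, since it had 47 to 99 counts per library. The other two were further from 0 but overlapped between groups and did not pass: Kat2b, a coactivator in SAGA and ATAC, at 0.16 (SE 0.08, edgeR adjusted p = 0.272), and Kat8 at -0.21 (SE 0.13, edgeR adjusted p = 0.386). Kat2b had 90.8, 81.5, 84.4 and 78.2 CPM in KO, against 71.6, 87.2, 72.3 and 69.8 CPM in wild type.

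The second comparison, Tg against wild type FVB x BALB/c, asks what the Kat6b transgene does. Ep300, Kat7, Crebbp and Kat5 were higher in Tg, and Kat2a, Kat2b and Kat8 did not pass the test. Across all promoters 57.3% passed, 5377 higher and 6093 lower, so a count of 4 of 7 is close to that background. The share that was higher depended on the signal: with promoters cut by mean CPM into 4 bins of 5002, it was 62.9% in the top bin (10.5% lower), which holds Kat7, Ep300, Crebbp and Kat2b. In the next bin, which holds Kat5, 38.9% were higher and 20.1% lower, and in the bin below, with Kat2a and Kat8, 5.08% were higher and 40.4% lower.

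Ep300 had 151, 163, 133 and 130 CPM in the Tg libraries, against 95.5, 98.2, 86.6 and 80.8 CPM in the wild type libraries. The lowest Tg library was well above the highest wild type library. The log2 change was 0.65 (SE 0.07, edgeR adjusted p = 1.17e-16), a 1.57-fold difference that was larger than that of 98.7% of promoters. Kat7 had 193, 189, 204 and 192 CPM in Tg and 145, 151, 137 and 137 CPM in wild type, again with no overlap. Its log2 change was 0.44 (SE 0.06, edgeR adjusted p = 1.42e-11), or 1.36-fold. For both genes the difference of the group means was over 3 times the SD of either group. Crebbp had 119, 124, 120 and 112 CPM in Tg, against 88.9, 93.7, 86.6 and 82.8 CPM in wild type, and rose by 0.42 on the log2 scale (SE 0.07, edgeR adjusted p = 3.61e-08), or 1.34-fold.

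Kat5 had the smallest of the 4 differences. It had 59.4, 60.9, 59.0 and 56.7 CPM in Tg, against 52.5, 52.2, 44.4 and 56.1 CPM in wild type, and the groups were separated by less than 1 CPM. The log2 change was 0.21 (SE 0.09, edgeR adjusted p = 0.0323). The Kat5 call was lost without Tg library 2 (0.19, edgeR adjusted p = 0.0669) or without wild type library 3 (0.13, edgeR adjusted p = 0.224), at equal depth (0.09, edgeR adjusted p = 0.682) and with offsets that follow abundance (0.10, edgeR adjusted p = 0.396). At equal depth Ep300, Kat7 and Crebbp still passed, with log2 changes of 0.67, 0.37 and 0.43. These 3 also passed with the abundance offsets, with smaller log2 changes of 0.42, 0.20 and 0.21.

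Kat2a had 24.9 to 30.2 CPM in Tg and 23.4 to 29.4 CPM in wild type, with a log2 change of 0.11 (95% interval -0.13 to 0.35). Kat8 had 27 to 32.3 CPM in Tg and 20.4 to 31.3 CPM in wild type, with a log2 change of 0.07 (95% interval -0.16 to 0.31). Both overlapped between groups. Kat2b had 74.4, 77.3, 68.3 and 76.7 CPM in Tg, against 90.1, 74.6, 68.3 and 63.0 CPM in wild type, where library 1 was the highest. Its log2 change was -0.04 (95% interval -0.19 to 0.12). The median of all promoters was -0.10 under TMM scaling and 0.32 when promoters were scaled with the factors of gene ends, where Kat2b was 0.39 and all 7 genes passed as higher. Relative to the median of all promoters, Ep300 lay 0.75 above it under TMM and Kat2b 0.06 above it, and a change of library factors moves all promoters nearly alike. Offsets that follow abundance can move a promoter against that median, and with them Ep300 lay 0.43 above it and Kat2b 0.21 below it. Kat2b then passed as lower in Tg (log2 change -0.21, edgeR adjusted p = 0.0178), so its direction and its call in Tg changed with the scaling.

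**Figure D2:**
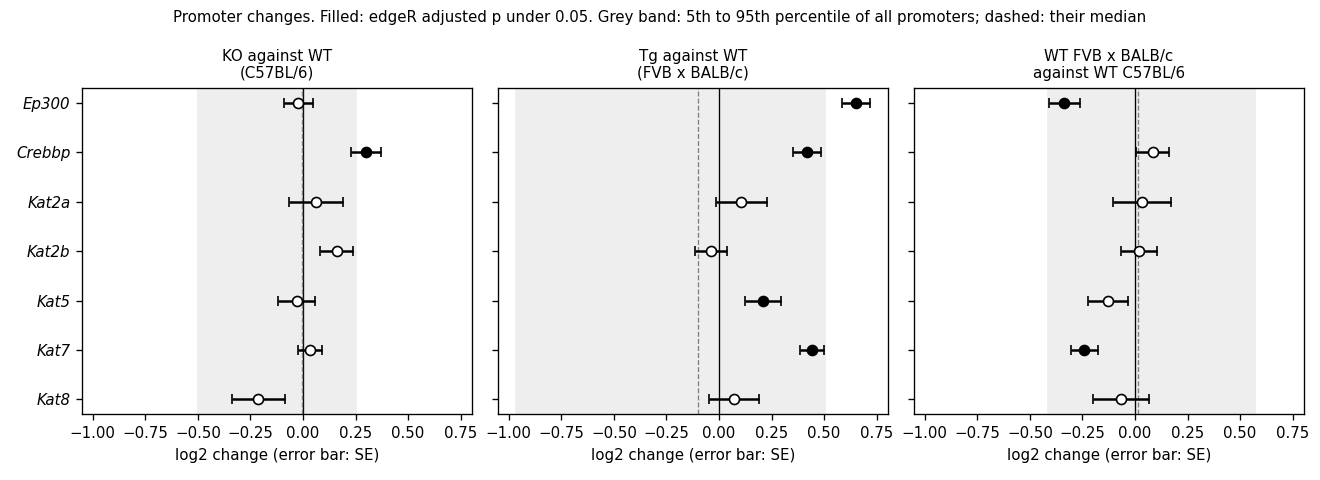
Log2 change of each gene's promoter with its SE in KO against wild type, in Tg against wild type and between the wild type groups; filled points have an edgeR adjusted p under 0.05, the grey band spans the 5th to 95th percentile of all promoters and the dashed line is their median. In Tg Ep300 at 0.65 lies to the right of the band, and in KO Crebbp at 0.30 does.

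The difference between the Tg and KO effects was tested in the same fit. Of all promoters 29.6% passed, so the count of 2 of 7 is close to that background. In the bin with the most signal, which holds Ep300 and Kat7, 42.4% passed with the larger value in Tg. Ep300 and Kat7 passed, both with the larger value in Tg: the Tg change exceeded the KO change by 0.67 for Ep300 (SE 0.10, edgeR adjusted p = 4e-09) and by 0.41 for Kat7 (SE 0.08, edgeR adjusted p = 2.59e-05). Crebbp, which rose in both comparisons, had a difference of 0.12 (95% interval -0.08 to 0.32, edgeR adjusted p = 0.387). The Kat5 difference of 0.24 did not pass (95% interval -0.01 to 0.48, edgeR adjusted p = 0.139), nor did those of Kat8 (0.29), Kat2b (-0.20) and Kat2a (0.04). Kat2b passed, with the smaller value in Tg, with offsets that follow abundance (-0.33, edgeR adjusted p = 0.0143) and with library totals alone (-0.29, edgeR adjusted p = 0.0325). Kat6a, the closest relative of Kat6b, had a log2 change of 0.53 in Tg (edgeR adjusted p = 1.27e-12) and of -0.02 in KO (edgeR adjusted p = 0.92). The KO and Tg effects were measured on different genetic backgrounds, so genotype and background cannot be told apart in this difference.

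Wild type FVB x BALB/c was set against wild type C57BL/6 to give the difference between the backgrounds without either mutation. Ep300 and Kat7 were lower in wild type FVB x BALB/c, and the other 5 promoters did not pass. Of all promoters 18.7% passed, 1397 higher and 2352 lower. In the bin with the most signal, which holds Ep300 and Kat7, 24% were lower, and the count is not by itself a result about these genes. For Ep300 the 80.8 to 98.2 CPM of wild type FVB x BALB/c lay below the 103 to 124 CPM of wild type C57BL/6, a log2 change of -0.34 (SE 0.08, edgeR adjusted p = 0.000267). For Kat7 the 137 to 151 CPM of wild type FVB x BALB/c lay below the 160 to 185 CPM of wild type C57BL/6, a log2 change of -0.24 (SE 0.06, edgeR adjusted p = 0.0024). Both calls were lost at equal depth (log2 changes -0.25 and -0.27, edgeR adjusted p = 0.255 and 0.0694), and that of Kat7 also with offsets that follow abundance (-0.15, edgeR adjusted p = 0.0596). Crebbp had a log2 change of 0.09 (95% interval -0.07 to 0.24), and Kat5, Kat8, Kat2b and Kat2a had -0.13, -0.07, 0.02 and 0.03. With the gene-end factors Kat5 passed as lower in wild type FVB x BALB/c (-0.33, edgeR adjusted p = 0.0308). This comparison shares its wild type libraries with the Tg and KO comparisons, so the same wild type FVB x BALB/c values of Ep300 and Kat7 enter both this difference and the Tg change.

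Ratios within a library need no scaling between libraries, and were used to ask whether relatives moved unequally. They do not remove a shift that follows signal. In Tg the median log2 change was -0.27 in the bin of Kat2a and Kat8 and 0.12 in that of Kat5. It was 0.25 in the top bin, which holds Kat7, Ep300, Crebbp and Kat2b. The part of this shift in the ratios was not tested. The log2 ratio of Ep300 to Crebbp counts averaged 0.14 ± 0.11 in KO, against 0.46 ± 0.17 in wild type C57BL/6 (SD, n = 4 each), and the groups did not overlap. In Tg it averaged 0.28 ± 0.11, against 0.03 ± 0.06 in wild type FVB x BALB/c, again without overlap. The difference was therefore -0.32 (SE 0.10) in KO, with relatively more signal at Crebbp, and 0.25 (SE 0.06) in Tg, with relatively more at Ep300. Each reached the smallest p that a two-sided exact permutation test of 4 against 4 allows, 0.0286, and neither passed after adjustment over 15 comparisons (adjusted p = 0.107). Groups that do not overlap give this p, so the separation and the p are the same observation. The share of all pairs of promoters whose ratio separates in this way was not computed. Between the wild type groups the same ratio was lower in FVB x BALB/c by 0.43 on the log2 scale (exact permutation p = 0.0286, adjusted p = 0.107).

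Of the other pairs, Kat5 to Kat7 was separated in Tg, where the log2 ratio was -1.72 ± 0.07 against -1.47 ± 0.14 in wild type FVB x BALB/c (difference -0.24, SE 0.08, exact permutation p = 0.0286, adjusted p = 0.107). For Kat7 to Kat8 in Tg the log2 ratio was 2.74 ± 0.10 against 2.39 ± 0.23 in wild type, and the groups overlapped (exact permutation adjusted p = 0.257). The GNAT pair Kat2a to Kat2b differed by -0.08 (SE 0.17) in KO and 0.06 (SE 0.21) in Tg from wild type, with overlap in both. None of the 15 ratio comparisons passed after adjustment. With 4 against 4 the exact permutation p cannot fall below 0.0286. After adjustment a ratio at that p passes only if most of the 15 reach it too. A single pair that was fully separated could therefore not pass on its own, and no conclusion is drawn from the lack of passes.

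**Figure D3:**
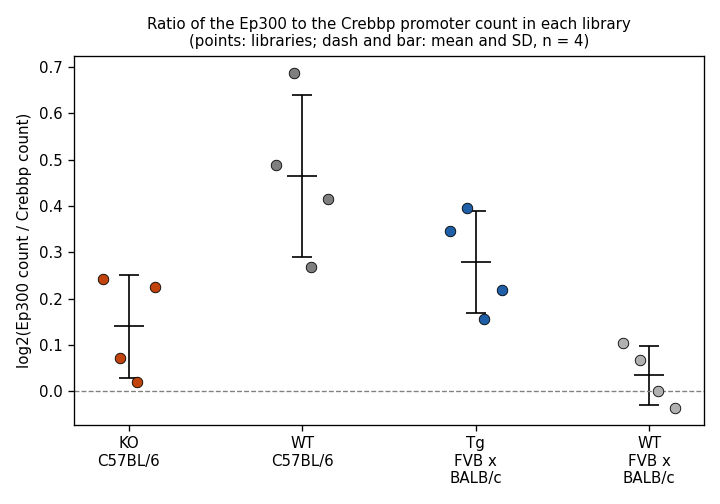
Log2 ratio of Ep300 to Crebbp promoter counts in each library, by group, with the mean and SD over 4 libraries; the dashed line marks equal counts. The KO libraries (0.02 to 0.24) lie below all wild type C57BL/6 libraries (0.27 to 0.69), and the Tg libraries (0.16 to 0.40) lie above all wild type FVB x BALB/c libraries (-0.04 to 0.10). The share of all pairs of promoters that separate in this way was not computed.

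At gene ends, windows of 1001 bases downstream of the transcription end, none of the 6 tested genes passed in any comparison by edgeR or by DESeq2. Among all gene ends 1.52% passed in KO against wild type, 6.27% in Tg against wild type, 3.33% between the wild type groups and 2.66% for the difference of the Tg and KO effects. Before adjustment 2 of the edgeR p-values were under 0.05: Kat5 in Tg with a log2 change of 0.36 (adjusted p = 0.263), and Kat7 between the wild type groups with 0.73 (adjusted p = 0.344). Apart from Kat5 these windows held 1 to 32 counts per library for the tested genes, and only large changes could be seen: for Ep300 in Tg the 95% interval ran from -0.56 to 0.64.

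Kat5 had by far the most accessible gene end of the 7, with 173 ± 7.74 CPM in KO, 158 ± 13.2 in Tg, 122 ± 16.1 in wild type FVB x BALB/c and 143 ± 26.9 in wild type C57BL/6 (SD, n = 4 each). The KO libraries had 166, 167, 181 and 178 CPM, against 147, 164, 158 and 104 CPM in wild type C57BL/6. The groups did not overlap, but the log2 change of 0.30 did not pass (SE 0.17, edgeR adjusted p = 0.633). In the RefSeq annotation the gene Rnaseh2c lies within that distance of the Kat5 end, so the window may hold reads of its promoter or body. The same holds for Dhx58 at the Kat2a end and Prss8 at the Kat8 end. The starts of Hspb9 and the non-coding Gm11520 lie near those of Kat2a and Kat7. Whether they fall within the counted promoter windows is not known. The Crebbp gene end had 8, 5, 1 and 2 counts in KO, 4, 1, 2 and 0 counts in Tg, 5, 2, 7 and 4 counts in wild type FVB x BALB/c, and 4, 3, 3 and 6 counts in wild type C57BL/6, too few to test.

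**Figure D4:**
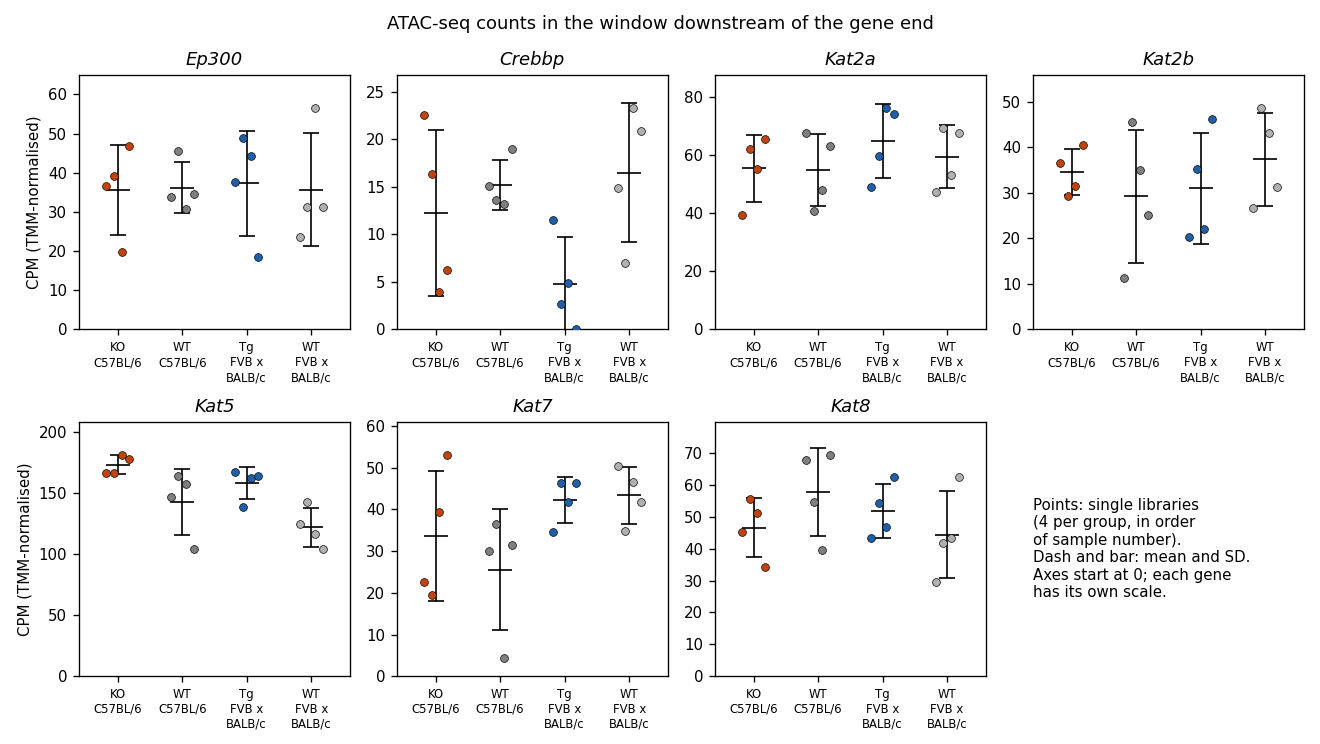
TMM-normalised CPM in the window downstream of each gene's end in every library, by group, with the mean and SD over 4 libraries; each gene has its own axis from 0. Kat5 at 104 to 181 CPM is the highest, and the libraries of the mutant and wild type groups overlap for all genes except Kat5 in KO.

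These enzymes act in multi-subunit complexes, and the promoters of their partners were followed in the same fits. Of all promoters 3.99% passed in KO. The partner counts stand against that background and are not by themselves a result about the partners. In KO 2 of 14 TIP60 subunits and 1 of 12 p300 and CBP partners passed. So did 0 of 19 SAGA and ATAC subunits, 0 of 9 HBO1 subunits and 0 of 11 MSL and NSL subunits. By DESeq2 the TIP60 count was 1 and the others were the same numbers. At an unadjusted edgeR p under 0.05 the counts of 0 became 2, 0 and 0. The TIP60 genes were Brd8, a bromodomain subunit (log2 change 0.28, edgeR adjusted p = 0.00519), and Epc2, an enhancer of polycomb homologue (0.19, edgeR adjusted p = 0.0336). That count was 1 without KO library 1, 3 or 4 or wild type library 3 or 4, 0 without wild type library 1 and 3 without wild type library 2. It was 1 with library totals alone, with the gene-end factors or with offsets that follow abundance, and 0 at equal depth. The p300 and CBP partner was Crem, a cAMP-responsive CREB relative (0.25, edgeR adjusted p = 0.00346), whose call was lost without wild type library 4, with the gene-end factors and at equal depth. List medians were -0.04 to 0.10, beside -0.01 for all promoters.

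In Tg most partner promoters that passed were higher, beside a median of -0.10 over all promoters. Of all promoters 57.3% passed, 26.9% higher and 30.5% lower, and 62.9% of the bin with the most signal were higher. The counts that follow stand against that background and are not by themselves a result about the partners. Of the SAGA and ATAC subunits, 10 of 19 were higher and none lower (median 0.17), led by Tada2a (0.45), the deubiquitinase Usp22 (0.44), Taf5l (0.41) and Atxn7l3 (0.39). Of the TIP60 subunits, 10 of 14 were higher and none lower (median 0.27): Epc2 rose by 0.69, its relative Epc1 by 0.52, Brd8 by 0.49 and the ATPase Ruvbl2 by 0.43. Of the HBO1 subunits 2 of 9 were higher, the scaffold genes Brpf3 (0.51) and Jade2 (0.42), and none was lower (median 0.10).

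Beside the same 57.3% of all promoters that passed in Tg (26.9% higher, 30.5% lower), 8 of 11 MSL and NSL subunits were higher (median 0.47). The largest changes were those of Ogt, the X-linked O-GlcNAc transferase (0.99), its partner Hcfc1 (0.60), the scaffold Msl1 (0.58) and Phf20 (0.54). Among these subunits 1 was lower, Msl3 (-0.16, edgeR adjusted p = 0.0253), though by DESeq2 none was lower. The sex of the embryos is not stated, and its part at X-linked promoters such as that of Ogt was not tested. Of the p300 and CBP partners 9 of 12 were higher and none lower (median 0.31), led by the CREB-family factors Creb1 (0.54) and Atf1 (0.49), the CREB coactivator Crtc3 (0.46) and Cited2 (0.42). At equal depth the SAGA and ATAC count was 4 and the TIP60 count 5. With offsets that follow abundance 2 HBO1 subunits were higher and 3 lower, and with the gene-end factors 18 SAGA and ATAC and 8 HBO1 subunits were higher.

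**Figure D5:**
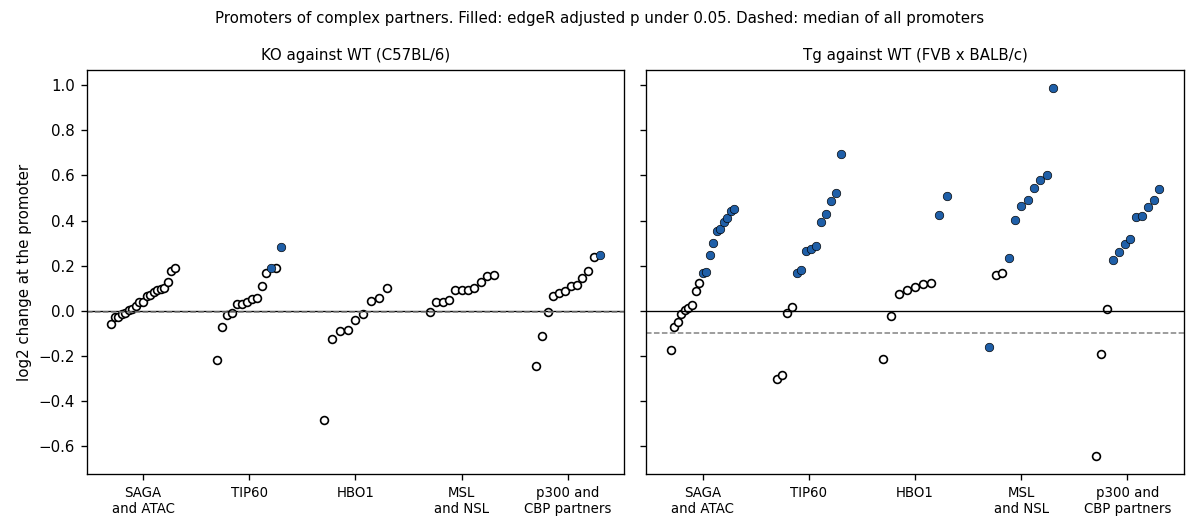
Log2 change of each partner promoter in KO and in Tg against wild type of the same background, by complex; filled points have an edgeR adjusted p under 0.05 and the dashed line is the median of all promoters. In KO 3 points are filled, all above 0, and in Tg 40 are filled, of which 1, Msl3, lies below 0.

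The difference of the Tg and KO effects passed with the larger value in Tg for 6 SAGA and ATAC, 6 TIP60, 2 HBO1, 7 MSL and NSL and 3 p300 and CBP partners, and with the smaller value in Tg for 1, Crem (-0.24, edgeR adjusted p = 0.0214). Of all promoters 29.6% passed for this difference, and in the bin with the most signal 42.4% passed with the larger value in Tg. Ogt had the largest of these differences, 0.83. Between the wild type groups 3 TIP60, 2 HBO1, 4 MSL and NSL and 3 p300 and CBP partners were lower in FVB x BALB/c and, under TMM scaling with all libraries in, none was higher, beside 18.7% of all promoters that passed and 24% that were lower in the bin with the most signal. Among them were Jade2 (-0.71), Ogt (-0.53), Epc1 (-0.52), Epc2 (-0.41) and Creb1 (-0.27). The HBO1 count was 1 without wild type C57BL/6 library 2 or 4 or wild type FVB x BALB/c library 1, 2 or 4, and also by DESeq2, at equal depth and with only the 2 groups fitted. These counts moved with the scaling. With the gene-end factors 8 TIP60, 6 MSL and NSL, 6 p300 and CBP and 7 SAGA and ATAC partners were lower. With offsets that follow abundance 1 MSL and NSL and 1 p300 and CBP partner were lower and 3 SAGA and ATAC subunits were higher. At equal depth 1 MSL and NSL subunit and no p300 and CBP partner passed. No SAGA and ATAC subunit passed under TMM scaling by edgeR with all libraries in and no replicate block, or by DESeq2 (4 at an unadjusted edgeR p under 0.05), but 1 was lower with DESeq2's size factors in edgeR and 1 higher with library totals alone. With 1 library left out, 3 SAGA and ATAC subunits were lower without wild type FVB x BALB/c library 1, 1 was lower without wild type C57BL/6 library 4, and 1 was higher without wild type FVB x BALB/c library 3 or 4.

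Other promoters followed the 7 genes across the 16 libraries to unequal degrees, by Pearson's r of log2 CPM; the libraries share their groups, depth and scaling, and the values are a description. Kat7 was most like Eif4g2 (r = 0.98), Sp3 (0.97) and Aplp2 (0.96), and 1.62% of promoters had an r over 0.9 with it. Ep300 was most like Kansl1l, Pdss2 and Armh3 (0.96 each), with 0.806% over 0.9. Crebbp was most like Trir, Rhoa and Tcta (0.93 each), with 0.185% over 0.9. Within groups r with Crebbp was only 0.34 for Trir, 0.57 for Rhoa and 0.57 for Tcta. The r within groups was 0.83 for Eif4g2 with Kat7 and 0.93 for Kansl1l with Ep300. No promoter reached 0.9 with the other 4: the highest were Usp16 for Kat2b (0.88), Mn1 for Kat5 (0.88), Ints5 for Kat2a (0.83) and Jag2 for Kat8 (0.78). Among the 7 themselves, Kat7 and Ep300 were the most alike (0.89), Ep300 and Crebbp had 0.68, and Kat2a had -0.17 with its family member Kat2b.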

How the data were processed

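The authors deposited whole-number counts of ATAC-seq reads per window for each of 16 libraries, for promoters and for windows downstream of gene ends. Reads were counted with featureCounts on mm39, per the submitters' processing notes; aligner, read filters and use of the spike-in are not stated in the sources used here. Reads were not counted by molecule, so intervals cover the spread between libraries or counting error only. All 16 columns of each table were used, and the single-sample count files held the same values. Gene IDs were matched to symbols through RefSeq (20091 of 20113), and promoter sequences come from the RefSeq table for GRCm38.p6. Another set of windows, at H3K4me1 and H3K27ac regions, was not used here, since its rows are not tied to genes.

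Chromosome Y, Xist and Tsix windows (17 per table) were left out, low counts were filtered with filterByExpr, and 20008 promoters and 15186 gene ends were tested in an edgeR quasi-likelihood fit over all 16 libraries, with TMM scaling, a coefficient per group and Benjamini-Hochberg adjustment over all windows of a table (threshold 0.05; R 4.3.3, edgeR 4.0.16, limma 3.58.1, DESeq2 1.42.0). SEs come from the quasi-likelihood statistic, and intervals are 95% intervals from them. Ratios of counts, with 0.5 added, were compared with two-sided exact permutation tests (scipy 1.17.1). The fits were tested on simulated data. No 2 replicates agreed within sampling noise: over the 24 pairs of each table, chi-square divided by its degrees of freedom was 1.04 or more. Each sample is a separate embryo per the series' design text. The 7 genes, the partner and marker lists and the motifs were chosen with earlier results of these data known. All 7 genes are named; of each partner list up to 4 of the called genes with the largest changes are named, and for likeness the 3 promoters with the highest r or the first of them. Alternatives were other scalings, no filter, DESeq2, thinning to the smallest library total, the 2 groups alone, a replicate block and leaving out each library.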

Additional observations from a re-analysis of the deposited data

Results flagged for a closer look

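Of 56 groups of 4 libraries (7 genes, promoters and gene ends, 4 groups), 2 held a library that stood apart by Dixon's test, and chance alone marks about 5 in 100 groups. For the Kat2b promoter in wild type C57BL/6, library 2 had 87.2 CPM and the others 69.8 to 72.3 CPM, a gap of 0.856 of the range. Without that library the Kat2b log2 change in KO was 0.24 (edgeR adjusted p = 0.104), against 0.16 with it. For the Crebbp promoter in wild type C57BL/6, the same library had 76.8 CPM and the others 84.7 to 86.1 CPM, a gap of 0.854 of the range. Without it Crebbp still passed in KO, with a log2 change of 0.26 (edgeR adjusted p = 0.0307).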

How the results depend on the processing

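Of 956 values of single genes under an alternative, 937 kept their side of the threshold, 9 lost it, 9 gained it and 1 reversed. With the scaling factors of gene ends, which moved the median promoter in Tg to 0.32, the number of the 7 promoters that passed was 7 in Tg, 5 for the difference of the Tg and KO effects and 3 between the wild type groups, where Kat5 was added, and Kat2b reversed to 0.39 in Tg. Thinned to equal depth, no promoter of the 7 passed in KO (0) or between the wild type groups (0), and with offsets that follow abundance 1 passed between the wild type groups, Kat5 lost its call in Tg (0.10) and Kat2b gained one in Tg (-0.21) and for the difference (-0.33). With 1 library left out the count was 1 to 1 in KO, 3 to 4 in Tg, 2 to 2 between the wild type groups, 2 to 2 for the difference, and 0 at gene ends. No ratio passed either, but a ratio that lost a library cannot reach an exact permutation p under 0.05. For those ratios the outcome was fixed in advance and shows nothing. The replicate block changed none of these counts (1, 4, 2 and 2 at promoters, 0 at gene ends). Among partners it moved the TIP60 count in KO to 1 and, between the wild type groups, the SAGA and ATAC count to 2 and the HBO1 count to 1. Deviations of same-numbered samples at promoters correlated at -0.11 to 0.18. Between the wild type groups the values were 0.05, 0.02, 0.03 and 0.18, and samples 1, 3 and 4 were most like their own number. In KO no sample was, and in Tg only sample 4 was. Whether same-numbered samples share a batch was not tested. With library totals alone Kat5 lost its call in Tg (0.09, edgeR adjusted p = 0.351), and Kat2b passed for the difference (-0.29, edgeR adjusted p = 0.0325). The cause was not tested, apart from the fewer counts that thinning leaves.

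Counts over all windows moved by over 1.5 times as follows. At promoters they were, in KO, 798 as reported, 371 with gene-end factors, 428 by DESeq2 and 67 thinned. In Tg they were 11470, then 7232 with abundance offsets (3456 higher, 3776 lower) and 4569 thinned. Between the wild type groups they were 3749, then 6194 with gene-end factors (421 higher, 5773 lower) and 857 thinned, and for the difference 5926 and 1348 thinned. At gene ends they were 231 in KO (104 thinned, 139 without wild type library 4), 952 in Tg (2934 with promoter factors, 276 higher and 2658 lower, 606 with abundance offsets, 557 thinned), 506 between the wild type groups (310 thinned) and 404 for the difference (258 with abundance offsets, 225 thinned). Depth limits the low windows most. In KO the SE of the log2 change was 0.13 for the Kat2a and the Kat8 promoter, against 0.06 for Kat7. At all gene ends but that of Kat5 only large changes could be seen.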
